A study of Homo sapiens with 6 samples.

Results

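The genes of the oxygen-sensing machinery were examined in 786-O, a human cell line long in use that derives from a clear cell renal carcinoma. They are the hypoxia-inducible factor (HIF) subunits EPAS1, HIF1A, HIF3A and ARNT, the tumour suppressor VHL, the prolyl hydroxylases EGLN1, EGLN2 and EGLN3, and the asparaginyl hydroxylase HIF1AN. They were taken by symbol, all 9 were found among 25987 named genes of the count table, and 8 passed the filter on low counts. RNA came from 3 copper and 3 control samples with 1 library each, all of a genotype labelled wild type. The copper samples were adapted to long-term copper, given as copper sulfate bound to serum proteins in the medium. The series text states 30 uM, and the labels of copper replicates 1, 2 and 3 state 30, 31 and 32 uM. Control serum was handled in the same way without copper. No source states that the samples of a group were separate cultures, so p-values measure the spread between these samples, which may be technical.

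In normal oxygen the EGLN enzymes hydroxylate prolines of the HIF alpha subunits, using iron, oxygen and 2-oxoglutarate. VHL, the substrate receptor of a ubiquitin ligase, binds the hydroxylated alpha subunit and directs it to the proteasome. HIF1AN hydroxylates an asparagine of the alpha subunit, which blocks the binding of coactivators. Alpha subunits that escape pair with ARNT and bind DNA at the core letters ACGTG or GCGTG. The EGLN1 and EGLN3 genes are themselves known HIF targets. Clear cell renal carcinoma typically loses VHL function. 786-O is known to lack functional VHL, to make no HIF1A protein and to keep the protein of EPAS1 stable in normal oxygen, so the RNA levels below say nothing of those protein states.

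The promoters of EGLN1 and EGLN3 are shown because both enzymes are known HIF targets while their RNA levels stood far apart and moved to opposite sides in copper replicate 3. Each sequence is the RefSeq window (GRCh38.p14) of 250 bases before the gene start, 5′ to 3′ on the gene's strand, with matches to ACGTG or GCGTG on either strand in capitals.
EGLN1, chr1:231422288-231422537, minus strand: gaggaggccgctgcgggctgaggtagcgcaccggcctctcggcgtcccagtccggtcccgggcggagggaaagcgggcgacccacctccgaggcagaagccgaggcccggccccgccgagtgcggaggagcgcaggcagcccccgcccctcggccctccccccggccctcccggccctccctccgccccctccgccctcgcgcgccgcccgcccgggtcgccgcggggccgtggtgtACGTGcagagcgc
EGLN3, chr14:33951075-33951324, minus strand: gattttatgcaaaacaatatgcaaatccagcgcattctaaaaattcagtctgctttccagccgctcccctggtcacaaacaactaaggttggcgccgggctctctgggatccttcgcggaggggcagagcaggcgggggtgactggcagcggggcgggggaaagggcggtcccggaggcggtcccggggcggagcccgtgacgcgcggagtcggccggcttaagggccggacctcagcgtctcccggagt
The EGLN1 window held 1 match, ACGTG, starting 13 bases before the gene start, and the EGLN3 window held none. RefSeq windows were found for 8 of the 9 genes, all but VHL. Of their 12 windows 5 held a match (41.7%), close to the 43.2% of all 35116 windows of that length. These are letter matches in 1 short window per start and say nothing of binding.

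The libraries held 16301772 to 25079913 counts. Replicate 3 of both groups stood apart on the first principal component of log2 CPM (CPM being the count scaled to the size of the library), which carried 67.1% of the variance. MT2A, a metal-binding metallothionein, lay above every control library in each copper library (719 ± 85.9 against 343 ± 12.8 CPM, SD, n = 3). Of 9 markers of renal lineage and clear cell carcinoma 8 passed the filter, among them PAX8 at 139 ± 12.3 CPM in control, while CA9 had 0 to 2 counts. Of 10 markers of blood, endothelium, fibroblasts and liver, 9 did not pass it, at 0 to 10 counts per library. The exception was LUM, at 1.57 to 4.71 CPM. The 10 summed to 2.57 to 3.82 CPM in control and 2.91 to 5.66 CPM in copper, and their part in the results was not tested. In bulk RNA, fewer cells of a type and less RNA per cell cannot be told apart.

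No oxygen-sensing gene passed the test of copper against control. By edgeR's quasi-likelihood test 0 of 8 had an adjusted p under 0.05, as did 0 of all 12944 genes tested (0%). At an unadjusted p under 0.05 there were 0 of 8, against 3.52% of all genes. DESeq2 called 0 of 8 and 0.209% of all genes, and limma-voom called 0 of either. A fit with the replicate number as a block, which compares libraries of the same number, also called 0 of the 8, with 0.170% of all genes called. The log2 fold changes lay between -0.24 and 0.22, 6 below and 2 above 0, with a median of -0.14 against 0.0052 for all genes. At the spread of these libraries, the unblocked 95% intervals of the 8 genes reached from -0.84 at the lowest to 0.57 at the highest. MT2A, with a log2 fold change of 1.07, did not pass the unblocked test of edgeR either (adjusted p 0.0843). DESeq2 without the block did call MT2A (adjusted p 1.80e-13), so the call of this gene depended on the method. It also passed the blocked test of edgeR (adjusted p 0.00516).

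**Figure D1:**
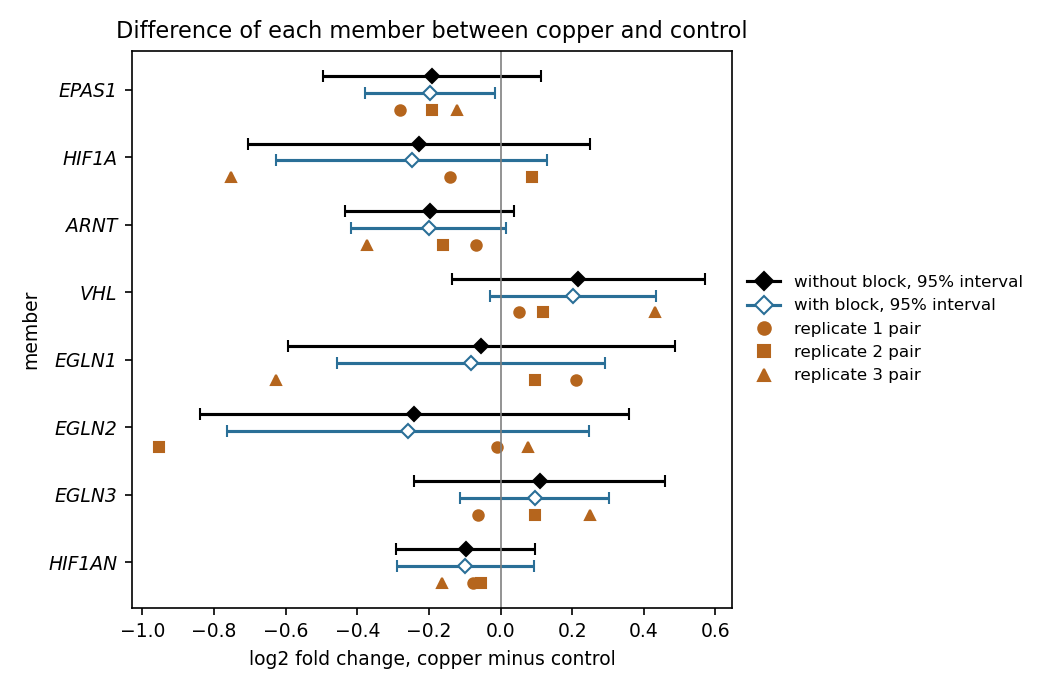
Log2 fold change of each gene, copper minus control, on the horizontal axis, with 95% intervals from edgeR without (black) and with (blue) the replicate block, and the difference within each replicate number (orange). All black intervals include 0; with the block, EPAS1 alone has an interval below 0, from -0.38 to -0.016, and its adjusted p is 0.573.

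The levels of these genes covered a wide range. Per kilobase of the longest coding transcript, EPAS1 was the highest at 77.2 ± 7.15 CPM in control and 67.6 ± 9.78 in copper (SD, n = 3). EGLN3 followed at 59.1 ± 5.09 and 63.8 ± 12.4, and the ranges of both over the libraries overlapped. These 2 genes stood at the 92.3rd and 90.4th percentile of the 11739 tested genes with a coding length. VHL had 12.7 ± 0.922 CPM per kilobase in control and 14.8 ± 2.98 in copper, and ARNT 14.6 ± 0.650 and 12.7 ± 1.09, so the order of these 2 was not resolved. Below them HIF1AN held a narrow range of 6.48 to 7.28 CPM per kilobase. This place rests on its long transcript, since in CPM not divided by length HIF1AN was above both. In control it had 93.9 CPM, against 47.6 for VHL and 71.3 for ARNT. HIF1A (1.69 to 2.99), EGLN1 (1.17 to 2.22) and EGLN2 (0.835 to 1.62) were lowest of the tested genes, between the 15.5th and 22.7th percentile, and each of these ranges overlapped its neighbour's.

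**Figure D2:**
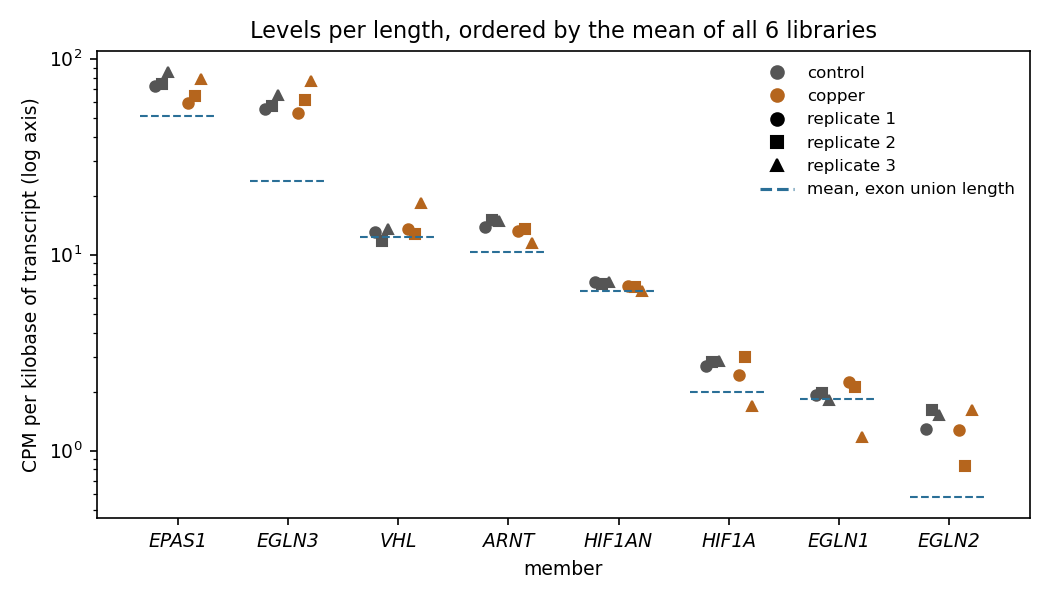
CPM per kilobase of the longest coding transcript (log axis) for the 8 tested genes in each control (grey) and copper (orange) library, with the marker shape for the replicate; the dashed line is the mean of the group means when all annotated exons are counted as length. EPAS1 and EGLN3 lie above the other 6 genes on both lengths, and their ranges overlap only with the coding length.

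With the union of all annotated exons as length, an alternative chosen after seeing the data, the order of the 9 genes was the same. EGLN3 then fell to 22.9 CPM per kilobase in control and EPAS1 to 54.6, and their ranges no longer overlapped. For HIF1AN the coding and exon union lengths were close, 13.0 and 13.95 kilobases, so this alternative hardly tests its place. Which transcripts the counts came from is not given in the sources used here.

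**Figure D3:**
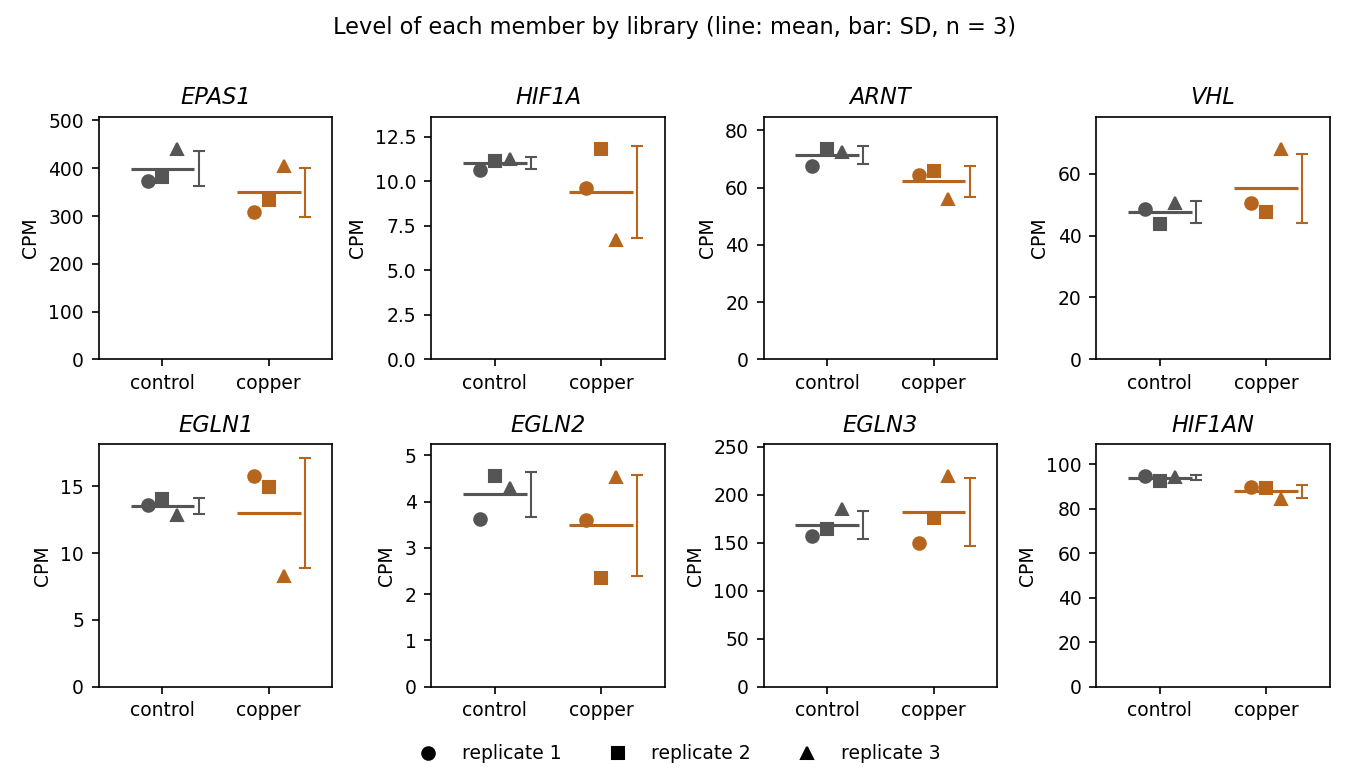
CPM (vertical axis from 0) of each tested gene in the 3 control (grey) and 3 copper (orange) libraries, with the mean as a line and the SD as a bar beside it. The groups overlap for all genes but ARNT and HIF1AN, and copper replicate 3 (orange triangle) is the highest or lowest library for 6 of the 8 genes.

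EPAS1 encodes HIF-2 alpha, the alpha subunit on which 786-O cells are known to depend (Entrez 2034; chromosome 2, 46297407 to 46386697, plus strand). Copper replicates 1, 2 and 3 had 308, 334 and 406 CPM, and control replicates 1, 2 and 3 had 374, 381 and 441 CPM. Replicate 3 was the highest library of each group, and the groups overlapped because copper replicate 3 exceeded 2 of the controls. EPAS1 was lower in copper within each replicate number, by log2 differences of -0.28, -0.19 and -0.12. EPAS1, ARNT and HIF1AN, 3 of the 8 genes, were lower in all 3 numbers, as were 17.0% of all genes. Without the block, the log2 fold change was -0.19 (SE 0.13, 95% interval -0.50 to 0.11) with an edgeR adjusted p of 1.00. With the block it was -0.20 (SE 0.079), with an unadjusted p of 0.0366 and an edgeR adjusted p of 0.573. It was the 1 gene of the 8 with an unadjusted p under 0.05 in that fit, which 8.41% of all genes reached.

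The result for EPAS1 depended on replicate 3. In replicates 1 and 2 alone the log2 fold change was -0.23 (SE 0.060) with an edgeR adjusted p of 0.112, where 0.856% of all genes were called. With the block and without replicate 3, a fit chosen after seeing the data that leaves 1 residual degree of freedom, it was -0.24 (SE 0.040) with an adjusted p of 0.000849. The spread behind that p comes mostly from what edgeR shares over all genes, and little from EPAS1 itself. That fit called 912 of 12966 genes (7.03%), and EPAS1 was the only 1 of the 8 genes among them.

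HIF1A encodes HIF-1 alpha (Entrez 3091; chromosome 14, 61695513 to 61748258, plus strand). Copper replicates 1, 2 and 3 had 9.63, 11.8 and 6.69 CPM, while the controls lay close together at 10.6, 11.1 and 11.3 CPM. Copper replicate 2 was the highest of all libraries and copper replicate 3 the lowest, so the groups overlapped. The log2 fold change was -0.23 (SE 0.21, edgeR adjusted p 1.00), and without replicate 3 of both groups it was -0.014. Leaving out 1 library gave from -0.43 without copper replicate 2 to -0.033 without copper replicate 3. An antisense RNA, HIF1A-AS1, shares 117 exon bases with HIF1A in GENCODE 29 and had 0 to 3 counts per library. HIF1A-AS3 had 6 to 14 counts.

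HIF3A, a further alpha subunit with inhibitory splice forms (Entrez 64344; chromosome 19, 46298376 to 46343433, plus strand), did not pass the filter. It had 2, 1 and 2 counts in copper and 0, 0 and 2 in control. A count of 0 allows up to 3 counts by counting error alone, so no difference was detectable at this depth and no fold change is given.

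ARNT, also called HIF-1 beta, is the partner that both alpha subunits need to bind DNA (Entrez 405; chromosome 1, 150809714 to 150876599, minus strand). Its copper libraries had 64.6, 65.9 and 56.1 CPM and its control libraries 67.7, 73.7 and 72.6 CPM. All copper libraries were below all control libraries, the lowest being copper replicate 3. This gave a log2 fold change of -0.20 (SE 0.10, 95% interval -0.43 to 0.037). ARNT had the smallest p of the 8 genes, 0.0872 before and 1.00 after edgeR's adjustment.

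VHL (Entrez 7428; chromosome 3, 10141778 to 10153666, plus strand) was transcribed in every library. This says nothing of its protein, since a gene can carry an inactivating change and still yield RNA. Copper replicates 1, 2 and 3 had 50.4, 47.6 and 68.1 CPM, and the controls 48.6, 43.8 and 50.5 CPM. Only copper replicate 3 stood above all control libraries. Its log2 fold change was 0.22 (SE 0.15, edgeR adjusted p 1.00), and it was 0.081 in replicates 1 and 2 alone. Its positive sign was seen in each replicate number, at log2 differences of 0.052, 0.12 and 0.43. VHLL, a related gene, had at most 1 count in a library.

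The 3 prolyl hydroxylases were far from equal in level. Per kilobase of the longest coding transcript, EGLN3 made up 93.8% to 96.5% of their sum in each library. Per exon union its share was lower, with EGLN3 at 9.37 to 26.1 times EGLN1 and 32.2 to 66.5 times EGLN2. EGLN3 (Entrez 112399; chromosome 14, 33924227 to 33951074, minus strand), an enzyme known to be strongly HIF-induced, had 149.9, 175 and 219.7 CPM in copper and 157, 164 and 185 CPM in control. Copper held both the highest and the lowest library, and replicate 3 was the highest in each group. With a log2 fold change of 0.11 (SE 0.15, edgeR adjusted p 1.00) it was not called, and the sign changed, to -0.050, without copper replicate 3.

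EGLN1, also called PHD2, is regarded as the main HIF prolyl hydroxylase in normal oxygen (Entrez 54583; chromosome 1, 231363757 to 231422287, minus strand). Copper replicates 1, 2 and 3 had 15.8, 14.97 and 8.31 CPM, and the controls 13.6, 14.02 and 12.8 CPM. Copper replicates 1 and 2 were above all controls and copper replicate 3 below them. Its log2 fold change of -0.053 (SE 0.23, edgeR adjusted p 1.00) therefore averaged opposite differences, 0.21 and 0.095 in replicates 1 and 2 and -0.63 in replicate 3. Without copper replicate 3 it was 0.19, with an adjusted p of 0.551.

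EGLN2, also called PHD1 (Entrez 112398; chromosome 19, 40799522 to 40808434, plus strand), had 59, 42 and 84 counts in copper and 90, 93 and 82 in control. On the CPM scale these were 3.60, 2.36 and 4.53 in copper and 3.62, 4.56 and 4.30 in control, so copper replicate 2 lay well below the controls, copper replicate 1 just below them and copper replicate 3 among them. The log2 fold change was -0.24 (SE 0.26, edgeR adjusted p 1.00), and it was -0.032 without copper replicate 2 and -0.47 without copper replicate 3. In GENCODE 29 the readthrough gene RAB4B-EGLN2 covers 30.6% of the EGLN2 exon bases on the same strand. The count table has no row under that symbol. How reads shared by overlapping genes were counted is not given in the sources used here, so the low level of EGLN2 is uncertain. RAB4B, the upstream gene of that readthrough, had 10 to 26 counts.

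HIF1AN, also called FIH, varied little within each group (Entrez 55662; chromosome 10, 100535943 to 100559995, plus strand). Copper libraries had 89.7, 89.2 and 84.3 CPM and control libraries 94.7, 92.6 and 94.4 CPM. All copper libraries were below all control libraries, by a small margin. The log2 fold change was -0.098 (SE 0.084, 95% interval -0.29 to 0.097, edgeR adjusted p 1.00). The neighbouring NDUFB8 on the other strand shares 325 exon bases with it, 2.33% of the HIF1AN exons, and the use of strand in counting is not given.

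Groups that do not overlap were thus seen for 2 of the 8 genes, ARNT and HIF1AN, both lower in copper, where 5.35% of all genes lay lower and 5.45% higher without overlap, 10.8% in either direction. Neither passed the test. Copper replicate 3 lay outside the range of the other 5 libraries for 6 of the 8 genes, above it for VHL and EGLN3 (33.2% of all genes) and below it for HIF1A, ARNT, EGLN1 and HIF1AN (33.8%). That share was close to the 67.0% of all genes for which this library was the highest or lowest. The part of whatever set this library apart in the values of these genes was not tested.

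The balance between the genes was described by the ratio of CPM per kilobase, which does not depend on library scaling. The coding length is used unless stated, and another length multiplies a ratio by the same factor in every library, so it changes the level of a ratio but not whether the groups overlap. Of the 28 ratios between the 8 tested genes 4 did not overlap between groups (14.3%), against 11.1% of all pairs of tested genes, so such separation was about as common here as elsewhere. The ratios share genes and are not independent. EPAS1 per VHL was 4.43, 5.08 and 4.31 in copper and 5.57, 6.30 and 6.33 in control. EPAS1 per EGLN3 was 1.13, 1.05 and 1.02 in copper and 1.32, 1.28 and 1.32 in control, with a mean of 1.07 ± 0.0596 against 1.31 ± 0.0212 (SD, n = 3). VHL per ARNT and VHL per EGLN2 were the others and were higher in copper, at 1.18 ± 0.352 against 0.875 ± 0.0858 and at 12.4 ± 2.50 against 8.75 ± 1.45. With the union of exons as length, chosen after seeing the data, EPAS1 per EGLN3 averaged 1.95 in copper and 2.39 in control, and VHL per EGLN2 averaged 25.6 in copper and 18.1 in control. In replicates 1 and 2 alone 14 of the 28 ratios did not overlap, against 43.2% of all pairs.

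**Figure D4:**
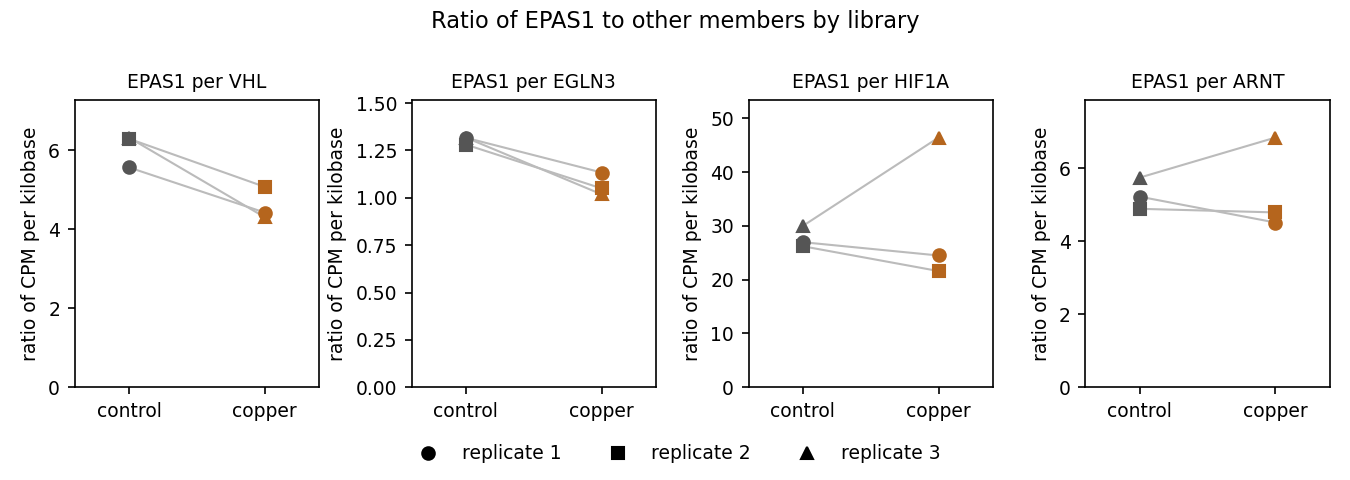
Ratio of EPAS1 to VHL, EGLN3, HIF1A and ARNT (CPM per kilobase, vertical axis from 0) in each library, with grey lines joining libraries of the same replicate number. The first 2 ratios are lower in every copper library than in every control library, from 4.31 to 5.08 against 5.57 to 6.33 and from 1.02 to 1.13 against 1.28 to 1.32; the other 2 overlap, with copper replicate 3 the highest.

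EPAS1 per HIF1A was 24.5, 21.6 and 46.4 in copper and 27.0, 26.2 and 30.0 in control. The RNA of the HIF-2 alpha gene was thus 21.6 to 46.4 times that of the HIF-1 alpha gene per coding length, and 19.9 to 42.8 times per exon union. EGLN3 per EGLN1 was 23.7, 29.2 and 65.9 in copper and 28.6, 29.1 and 35.8 in control, and per exon union it ran from 9.37 to 26.1 over the libraries. In both ratios copper replicate 3 stood well above the other libraries, and the remaining copper libraries lay within or below the range of the controls.

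By likeness over the 6 libraries, EPAS1 was most like KDELR3 (Pearson r of log2 CPM 0.994), RPAP1 (0.994) and MEF2C (0.988), out of 10290 tested genes that averaged 5 CPM or more. EGLN3 was most like ZFYVE28, NPC2 and FOSL1, with r of 0.998, 0.996 and 0.993. These values describe libraries that share the difference of replicate 3, and 321 genes for EPAS1 and 533 for EGLN3 had an r over 0.9. FOSL1, a subunit of the AP-1 transcription factor, had 111, 155 and 275 CPM in copper and 119.7, 128 and 191 CPM in control, with replicate 3 the highest in each group, as for EGLN3.

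Around these genes, 79 of 87 further genes of the pathway passed the filter, and edgeR called 0 of them with or without the block. None had an unadjusted p under 0.05 without the block (3.52% of all genes), 9 had one with it (8.41% of all genes), and DESeq2 and limma-voom called 0. The 6 genes of the VHL ligase and its neddylation were all above 0 on the log2 scale, and their median was 0.10 against 0.0052 for all genes. ELOB, the elongin B subunit of the ligase, had the smallest p of them, at 109 ± 20.1 CPM in copper and 92.2 ± 7.22 in control (SD, n = 3) and a log2 fold change of 0.24 (SE 0.14). All 6 overlapped between groups. Within replicate numbers 1, 2 and 3, the number of the 6 genes above 0 was 4, 3 and 5, and the median log2 difference was 0.038, 0.070 and 0.29, largest in the replicate that stood apart.

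Among 7 relatives of ARNT and the alpha subunits, 3 had values above and 4 below 0, with a median of -0.027. CLOCK, a circadian transcription factor, had the smallest p, at a log2 fold change of -0.23 (SE 0.16). Of 7 coactivators and CITED proteins, 6 were below 0, with a median of -0.13, and NCOA1, a coactivator of nuclear receptors and HIF, had a log2 fold change of -0.30 (SE 0.22). Of 17 regulators of HIF stability 10 were above 0, with a median of 0.042. SIAH2, a ubiquitin ligase that targets EGLN proteins, was lower in every copper library, at 50.6 ± 1.597 against 58.0 ± 1.399 CPM, a log2 fold change of -0.20 (SE 0.086). Its unadjusted p was 0.0535 and its edgeR adjusted p 1.00.

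The 29 other oxygenases that use 2-oxoglutarate had a median of -0.078, 21 of them below 0. KDM4A, a histone demethylase, was lower in every copper library, at 31.8 ± 1.97 against 36.6 ± 2.17 CPM (log2 fold change -0.20, SE 0.10, edgeR adjusted p 1.00). Of 13 tested HIF targets 4 were above and 9 below 0, with a median of -0.033. LOX, a copper-dependent enzyme that cross-links collagen, had the smallest p at a log2 fold change of -0.30 (SE 0.24). Over the 79 genes the groups did not overlap for 4, SIAH2, KDM4A and KDM3A lower and SIAH1 higher, against 10.8% of all genes. KDM3A and SIAH1 are named after their values were seen.

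**Figure D5:**
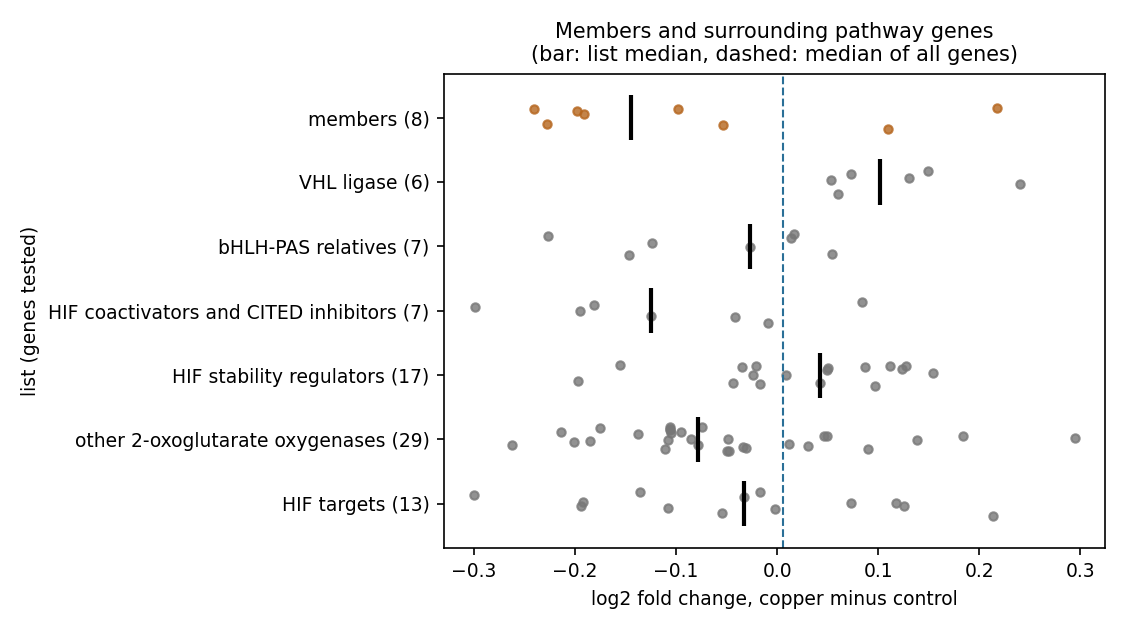
Log2 fold change, copper minus control, of the 8 tested oxygen-sensing genes (orange, labelled members) and of 6 lists of pathway genes (grey, vertical jitter only), with list medians as black bars and the median of all genes tested as a dashed line. List medians run from -0.14 for the oxygen-sensing genes to 0.10 for the VHL ligase, and 0 of the genes passed edgeR's test.

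Calls in the pathway, as for EPAS1, depended on replicate 3. With the block and without replicate 3, 11 of the 79 genes were called, 3 higher and 8 lower, where 7.03% of all genes were called in either direction. The share of all genes called lower in that fit was not counted. Of the 13 tested HIF targets that fit called 5, all lower in copper, and did not call the others. Outside that list it called SIAH2, FKBP8 and ALKBH5 lower, and SIM1, HSP90AA1 and ASPH higher. Among the called HIF targets were LOX, SLC2A1, BHLHE40 and DDIT4. All these genes are named after their values were seen. The log2 fold changes in that fit were -0.36 for LOX, -0.30 for the glucose transporter SLC2A1 and -0.28 for the transcriptional repressor BHLHE40. For the mTOR inhibitor DDIT4 it was -0.23, and the edgeR adjusted p-values of these 4 HIF targets ran from 4.57e-05 to 0.00130. ASPH, an aspartyl hydroxylase, was higher at 0.32 (adjusted p 1.37e-05), and it was also the 1 pathway gene called in replicates 1 and 2 without the block. In the replicate 3 pair that this fit leaves out, the sign turned for ASPH (log2 difference -0.22), SLC2A1 (0.099) and DDIT4 (0.036). It stayed negative for LOX (-0.23) and BHLHE40 (-0.080). The sign also turned for SIM1 (-0.80), FKBP8 (0.38) and ALKBH5 (0.12), and stayed for SIAH2 (-0.18) and HSP90AA1 (0.084). With 1 residual degree of freedom among 4 libraries, that fit rests on few samples, and its p-values draw mostly on a spread shared over all genes.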

How the data were processed

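Per the labels' protocols, strand-specific libraries (NEBNext Ultra II Directional) were made from total RNA of 3 copper and 3 control samples. The authors deposited raw gene counts, 1 column per library. The submitters' processing notes name STAR, FastQC, edgeR and GRCh38. The counting program, its strand setting and the annotation are not given in the sources used here. Starts in the table count from 0, and 1 was added. Rows lacking a symbol, 5 in all with 0.000814% of counts, were dropped.

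The edgeR package (4.0.16, in R 4.3.3) was used for the main test. Its filterByExpr function, with a minimum count of 10 and a minimum total of 15, left 12944 genes. TMM scaling and a robust quasi-likelihood fit on group alone followed, with Benjamini-Hochberg adjustment and a threshold of 0.05. A prior count of 2 entered each log2 fold change, and CPM is per TMM-scaled library size. Standard errors came from the unshrunken coefficient and the F statistic. Lengths and overlaps came from GENCODE 29. For EPAS1 and EGLN3 the 3 genes with the highest Pearson r were named, and from each list the gene with the smallest p.

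Replicate numbers 1 to 3 occur in both groups in the labels. Deviations of same-numbered libraries from their group means correlated across genes at 0.53, 0.45 and 0.68, each over the limit of 0.1 for pairing, and the blocked fit is given where it changes a result. Copper 1 with control 2 (0.37) and copper 2 with control 1 (0.30) were over that limit too, so these correlations do not separate same-numbered from crossed pairs among replicates 1 and 2 by the limit alone. Pairs crossing replicate 3 with another number were negative. Libraries of a group differed by more than sampling noise (lowest chi-square 5.42 per degree of freedom). Scripts were tested on simulated data. Alternatives were RLE and upper-quartile scaling, other filters, DESeq2 1.42.0, limma-voom (limma 3.58.1), the block, a term for replicate 3, replicates 1 and 2 alone, and each library left out. The genes and lists were chosen with earlier results of these data known. The values of 1 gene of the HIF target list are not reported here.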

Additional observations from a re-analysis of the deposited data

How the results depend on the processing

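Over all genes, the 0 calls of the test became 12 when low counts were not filtered. The replicate block gave 22 calls in edgeR and 58 in DESeq2, and DESeq2 without it gave 27. Replicates 1 and 2 alone gave 111 calls, and a term that parts off replicate 3 gave 35. Leaving out each library gave 0 to 15 genes, 15 only without copper replicate 3. Leaving out each pair under the replicate block, chosen after seeing the data, gave 74, 77 and 912 genes without replicates 1, 2 and 3. The count of oxygen-sensing genes stayed at 0 except for 1 (EPAS1, -0.235) in the last of these fits, and that of pathway genes at 0 except for 1 in replicates 1 and 2 alone and 11 in that fit. The block changed no other call among these genes. Of 160 log2 fold changes of the 8 genes under the alternatives, 154 kept direction and call, 5 reversed and 1 was stronger. EGLN1 reversed to 0.186 without copper replicate 3, 0.152 in replicates 1 and 2 alone and 0.153 with the block without replicate 3. EGLN3 reversed to -0.0501 without copper replicate 3, and EGLN2 to 0.0345 with the block without replicate 2. Over the fits without one library, EGLN1 ranged from -0.215 to 0.186, EGLN3 from -0.0501 to 0.228, EPAS1 from -0.313 to -0.111, HIF1A from -0.432 to -0.0333, EGLN2 from -0.471 to -0.0316, VHL from 0.0395 to 0.311, ARNT from -0.246 to -0.129 and HIF1AN from -0.116 to -0.0701. The ratios without overlap rose from 4 to 14 in replicates 1 and 2 alone, where fewer libraries make overlap rarer. The cause of the other changes was not tested. Scaling moved the median of all genes to at most 0.0281. Depth limits HIF3A, at 0 to 2 counts, and EGLN2, at 42 to 93.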
